A study of Mus musculus with 2 samples.

Results

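The loci described here are stretches of the mouse genome that gave long reads on the strand opposite to an annotated gene in both of 2 libraries of gastrocnemius, a calf muscle. TALON, the read annotation tool that made the deposited tables, places such reads in transcript models of the class Antisense. Antisense models of both libraries were joined into a locus where they shared at least 1 exon base on the same strand or carried the same TALON gene, and a locus was kept where both libraries had a model and the reads summed to at least 10. Of 22426 antisense loci on mouse chromosomes, 4569 had models of both libraries, 1271 of those had 10 reads, and 1264 remained once 7 loci over genes whose symbols start with Klhl or Kbtbd were left out. The loci were thus chosen by their read counts and by the presence of models in both libraries. Their number and levels are therefore descriptions and carry no test. The comparison of the libraries further below uses the same reads, so its calls also describe the chosen set. At the edge of the minimum, 129 loci had exactly 10 reads, and 150 further loci with models of both libraries had 9.

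Both libraries came from total RNA of B6CASTF1/J mice, the F1 cross of C57BL/6J with CAST/EiJ. The mice were female and 36 days old, no treatment is given, and each library was started from 2 µg of RNA with Lexogen and Ambion spike-in transcripts added. The labels give the libraries, replicate 2 and replicate 1, different mouse numbers under 1 shared donor entry, and both form a single group, so the study holds no comparison between conditions. All levels below compare antisense with sense transcription within a library, or set replicate 2 against replicate 1.

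Antisense transcripts are made from the strand opposite to a gene. Some start at a promoter that fires in both directions, some are read-through from a neighbouring gene on their own strand, and some overlap the end of the sense gene tail to tail. A few are well studied regulators of their sense partner, while for most no function is known, and in sequencing data reads on the opposite strand can also arise while the cDNA is made.

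Where the deposited models ended relative to the sense gene is easiest to see in the sequence itself. Each line below runs 5' to 3' on the antisense strand across the 3' end of the leading model of a locus, the model with the most reads. The last 10 bases of the model are in lower case, and the 20 genomic bases that follow it are in capitals. The sequences were taken from GENCODE M21 transcripts of the sense genes (mm10), turned to the opposite strand, and the loci are among those with the most reads, with Myom2 added as a sarcomere gene and Ubl3 as a spliced locus. The first 8 were followed by stretches made mainly of A.

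Mcu, chr10:59447979-59448008, + strand: actaattagtAAAAAAAAAAAAAAAAAAAA
Sdc4, chr2:164425125-164425154, + strand: acggagcattAAAAAAAAAAAAAAAAAAAA
Spry2, chr14:105892586-105892615, + strand: cacatggaccAAAAAAAAAAAAAAAAAAAA
2900097C17Rik, chr2:156391505-156391534, + strand: cacaaaatgtAAAAAAAAAAAAAAAAAAAA
Msrb3, chr10:120783305-120783334, + strand: aactttggacAAAAAAAAAAAAAAAATGGA
Lsm12, chr11:102163546-102163575, + strand: tgccctgtgcAAAAAAAAAGAAAGAAAAAA
Ak1, chr2:32634193-32634222, - strand: gagatgctgtCTTAAAAAAAAAAAAAAAGA
Myom2, chr8:15073370-15073399, - strand: tttttcttttAAAAAAAAGAAAGAAAAGTT
Ptp4a2, chr4:129839131-129839160, - strand: aaaaaaaaaaGCCTACTACTTCTGAGGCCA
Cdv3, chr9:103355304-103355333, + strand: ttctttatccCTAAGGGAAAAGAAATGTAA
Ubl3, chr5:148552148-148552177, + strand: agaagttacgTGGGAGCACAAGAGCTTCTG

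The Mcu, Sdc4, Spry2 and 2900097C17Rik loci stopped at runs in which all 20 of the next bases were A. The 20 bases after the Msrb3 locus held 17 A, those after Lsm12 held 18, those after Ak1 held 16, and those after Myom2 held 15. Ptp4a2, Cdv3 and Ubl3 were different: 4, 11 and 5 of the next 20 bases were A, although the Ptp4a2 model itself ended in an unbroken run of A. The leading models of Ptp4a2, Cdv3 and Ubl3 ended at an annotated exon end, which TALON can give a model. Their windows may thus not begin where the reads ended. Those of the other loci shown did not end at an annotated exon end.

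Across all loci, the 20 bases after the 3' end lay within 1 exon of the sense gene, and so could be read from a transcript, for 559 loci. In 286 of these (51.2%) at least 60% of the 20 bases were A on the antisense strand. Of the 5911251 windows of 20 bases in the exons of the same sense genes, 2.57% were as rich in A. The share was 60.2% for loci in 3' UTRs (237 of 394), 58.5% in noncoding exons (24 of 41), 4 of 7 in coding exons and 4 of 9 in 5' UTRs. It was lower where most bases of the locus lay in introns (12 of 94, 12.8%) or outside the gene (5 of 14), counting only loci whose leading model ended in an exon. At the other end of the locus, the 20 sense-strand bases past the 5' end were that rich in A in 14 of 496 loci (2.82%). Antisense loci outside the set, which were in 1 library or had fewer reads, ended at A-rich bases in 1383 of 3913 cases (35.3%). With 10 bases in place of 20, the share was 52.8% of loci against 6.62% of windows. All ends were taken as deposited. In 322 of the 1264 loci the leading model's 3' end was an annotated exon end, and these were not counted apart.

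**Figure D1:**
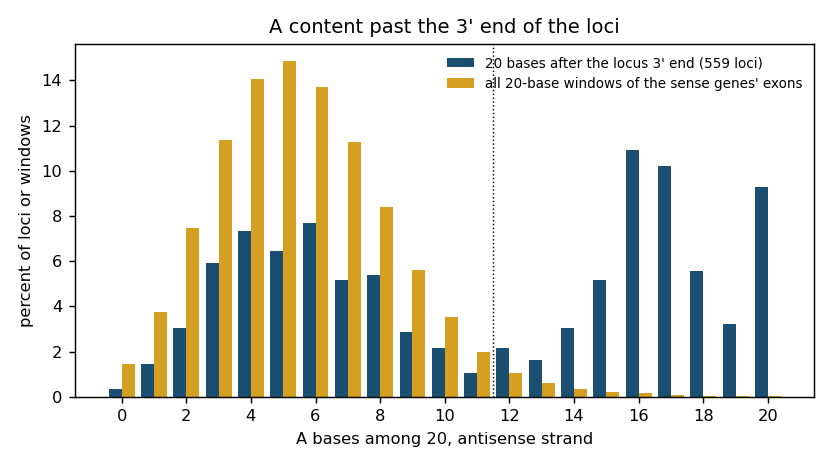
Number of A bases on the antisense strand among the 20 bases after the locus 3' end (horizontal axis), for the 559 loci with such a window and for all windows of 20 bases in the exons of their sense genes, as percent of loci or windows (vertical axis). The dotted line marks the 60% threshold; 51.2% of loci and 2.57% of windows lie to its right, and the loci form a separate group with 14 to 20 A.

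A-rich and other loci differed little in level. The median of the mean CPM, a read count scaled to the library's reads in annotated mouse genes, was 8.76 for A-rich loci and 7.81 for the other loci with a window, and A-rich loci held 55.2% of the reads of these loci. The polyadenylation signal AATAAA stood within the last 40 bases before the end in 21 of the 559 loci (3.76%), against 2.72% of 5726747 windows of 40 bases in the same genes' exons. That search covered the antisense strand only. Which primer made the cDNA is not given in the sources used here, and whether these reads began at the A runs was not tested. No genome sequence was used, so ends within introns were not examined.

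Loci lay mainly in introns and 3' UTRs. Each locus was placed by where most of its exon bases, merged over its models, fell on the sense gene, so a long model with few reads can set the place. Introns held 706 loci (55.9%) and 3' UTRs held 415 (32.8%). Noncoding exons held 67 loci (5.30%), the sequence just outside the gene 38 (3.01%), 5' UTRs 17 (1.34%) and coding exons 16 (1.27%), and 5 loci faced no annotated gene. Among the 21104 other antisense loci, 80.5% were in introns and 8.25% in 3' UTRs. The 3' UTR thus held a larger share of the 1264 loci, and the intron a smaller one, than of the other loci, which were in 1 library or had fewer reads; the depth that a locus needs to enter the set differs between them, so this is a description.

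By reads, the 3' UTR came first. Its loci held 50.1% of the reads of the set in replicate 2 and 42.4% in replicate 1, and intronic loci held 28.3% in replicate 2 and 32.5% in replicate 1. Placed by the leading model instead, loci in 3' UTRs held 52.3% in replicate 2 and 43.5% in replicate 1. The median level was 9.37 CPM for 3' UTR loci and 5.94 CPM for intronic loci. Of the 3' UTR loci, 345 lay wholly in the 3' UTR, and of the intronic loci 397 lay wholly in introns. Intronic loci were longer, with a median of 1862 exon bases against 1074 for 3' UTR loci.

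**Figure D2:**
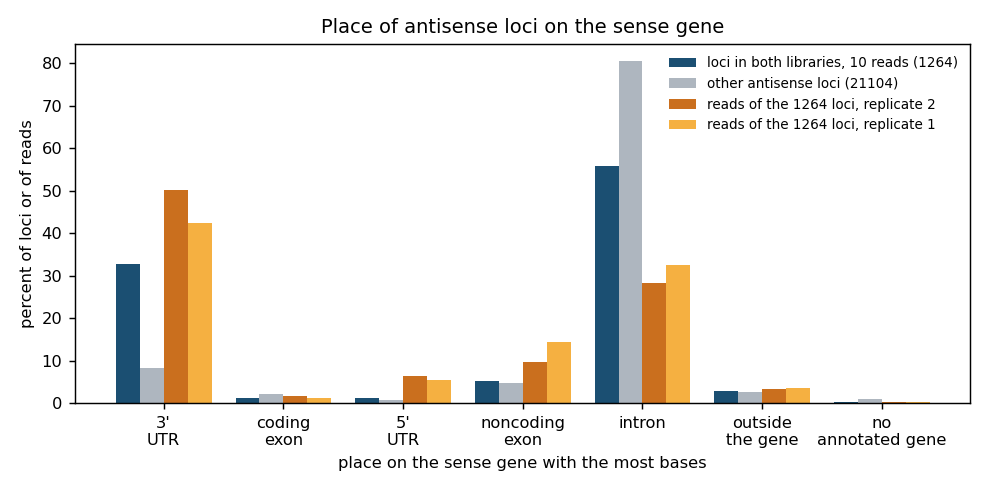
Percent of loci or of reads (vertical axis) in each place on the sense gene (horizontal axis), for the 1264 loci, for the 21104 other antisense loci, and for the reads of the 1264 loci in replicate 2 and replicate 1. The 3' UTR holds 32.8% of the loci against 8.25% of the other loci, and the intron 55.9% against 80.5%.

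Loci in 3' UTRs lay well inside the UTR more often than at its end. The 5' end of the locus was within 100 bases of an annotated sense 3' end in 132 of 415 loci (31.8%), and exactly at it in 129, where TALON can give a model the annotated end. The median distance to the nearest sense 3' end was 719 bases for the 5' ends and 870 bases for the 3' ends. Sense genes with such a locus had long UTRs. The longest annotated 3' UTR had a median of 3142 bases over 307 of the 391 genes with a 3' UTR locus. It was 1820.5 bases over 476 of the 596 genes with an intronic locus. For 7612 protein-coding genes with at least 10 reads it was 1230 bases. Genes with intronic loci were the longest, with a median span of 57.8 kb, against 39.6 kb for genes with a 3' UTR locus and 21.6 kb for all protein-coding genes with 10 reads.

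Promoters held fewer loci. In 191 loci (15.2%) an exon overlapped the stretch 250 bases before to 50 bases after a sense transcript start, and in 92 of them the 5' end lay within 500 bases of a sense start, on either side of it. By place, 107 of these were intronic, 35 in noncoding exons, 18 outside the gene, 14 in 5' UTRs, 9 in coding exons and 8 in 3' UTRs. The end of an annotated gene on the locus's own strand lay within 5 kb upstream of 169 loci (13.4%), against 8.14% of the other antisense loci. In 49 of the 169 it lay within 1 kb, and in 62 the upstream gene had at least 10 reads. Exons of 33 loci also overlapped an annotated exon on their own strand.

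The 3' ends of the loci were found again far more closely than the 5' ends. Between the leading model of replicate 2 and that of replicate 1, the 3' ends lay within 10 bases in 953 loci (75.4%) and the 5' ends in 527 (41.7%). The median distance was 0 bases at the 3' end and 120 bases at the 5' end. Leaving out models whose end was also an annotated exon end, the shares were 72.4% of 942 loci for 3' ends and 34.8% of 890 for 5' ends. Intronic loci had the same order, with 77.5% of 3' ends and 37.7% of 5' ends within 10 bases, and the 17 loci in 5' UTRs had 88.2% and 82.4%.

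Most loci were unspliced. Only 144 (11.4%) had a spliced model and 57 had one in both libraries, and spliced models held 2.19% of the reads of the set in replicate 2 and 3.06% in replicate 1. Of 322 introns in these models, 70, at 46 loci, had the coordinates of an intron of the sense gene. Spliced models were found at 98 of the 706 intronic loci (13.9%), 16 of the 415 3' UTR loci and 13 of the 38 loci outside the gene (34.2%). The exon bases of a locus had a median of 1487, with quartiles of 562.5 and 2856.25 and a maximum of 15136, and 15 loci with 314 reads in all were deposited as models of a single base.

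The most abundant loci with splicing were few. Opposite Mbnl1, which encodes a regulator of alternative splicing, a locus at chr3:60529149-60595749 on the - strand had 313 reads in replicate 2 and 73 in replicate 1, of which 251 and 54 were in spliced models. It began 38 bases from a Mbnl1 transcript start, overlapped the promoter, and 1 of its 3 introns had the coordinates of a Mbnl1 intron. Opposite Ubl3, which encodes a ubiquitin-like protein anchored to membranes, spliced models held 187 of 189 reads in replicate 2 and 28 of 28 in replicate 1, and both of their 2 introns had the coordinates of Ubl3 introns. The locus facing 9030025P20Rik had 68 reads in replicate 2 and 31 in replicate 1, of which 67 and 31 were spliced over 18 introns, none of them an intron of the sense gene. Gm13943, a lincRNA, faced a locus of 75 reads in replicate 2 and 26 in replicate 1, of which 71 and 26 were spliced, and 1 of its 2 introns was a sense intron. Opposite Bcl2l1, which encodes the survival protein Bcl-xL, 26 of 37 reads in replicate 2 and 3 of 5 in replicate 1 were spliced, and 2 of 3 introns had the coordinates of Bcl2l1 introns. Of these 5 loci, the one facing 9030025P20Rik shared no intron with its sense gene. The splice motifs of the introns were not examined, so the strand of reads that share an intron with the sense gene rests on the deposited assignment.

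The 1264 loci faced 1040 genes, 165 of which had several loci. Kcnma1, which encodes a calcium-activated potassium channel, had 6, Psmd11 and Nfia had 5 each, and Qk, Pdlim5 and Ank3 had 4 each; members over 1 gene share its sequence and are not independent. The sense gene was protein-coding for 1191 loci, another type for 68, of which 29 were lincRNAs, and 78 loci faced several genes. TALON's own name for the sense gene was the same for 1231 loci. The loci were spread over 21 chromosomes, 6 of them on the mitochondrial genome.

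Levels were low and uneven. The mean CPM of a locus over both libraries had a median of 6.87 and ran between 3.44 and 684. A locus had a median of 15 reads in replicate 2 and 3 reads in replicate 1, and 204 loci had a single read in replicate 1 against 1 locus with a single read in replicate 2. In both libraries 13 loci were above 100 CPM, and the 10 most abundant held 18.4% of all reads of the set. A single read stood for 0.624 CPM in replicate 2 and for 1.25 CPM in replicate 1, and a count of 0 allows up to 1.87 CPM in replicate 2 and 3.76 in replicate 1 (3 counts of the total).

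The most abundant locus lay in a 5' UTR and the next in a 3' UTR. The locus in the 5' UTR of Ptp4a2, a protein tyrosine phosphatase gene, lay at chr4:129839151-129839678 on the - strand and had 1588 reads in replicate 2 and 301 in replicate 1, or 684 ± 434 CPM (mean ± SD, n = 2). This 5' UTR was far from the start of the gene, with the middle of the locus at 0.727 of the gene's length. The 5' end of the locus was 312 bases, and its 3' end 45 bases, from an annotated Ptp4a2 3' end. Ptp4a2 itself had 840 reads in replicate 2 and 335 in replicate 1. The locus in the 3' UTR of Cdv3, at chr9:103354312-103355313 on the + strand, had 1514 reads in replicate 2 and 247 in replicate 1, or 627 ± 449 CPM, against 39 reads of Cdv3 in replicate 2 and 24 in replicate 1. Antisense reads thus outnumbered sense reads in both libraries for Cdv3, and in replicate 2 but not in replicate 1 for Ptp4a2.

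Several 3' UTR loci of regulatory and signalling genes had many times the reads of the gene. Msrb3, a methionine sulfoxide reductase gene, had 1072 antisense reads in replicate 2 and 176 in replicate 1 at chr10:120781096-120783314 (+ strand), against 74 sense reads in replicate 2 and 59 in replicate 1. Mcu, the pore subunit of the mitochondrial calcium uniporter, had 637 antisense reads in replicate 2 and 99 in replicate 1 at chr10:59446984-59448597 (+ strand), against 18 sense reads in replicate 2 and 15 in replicate 1. Mn1, a transcriptional regulator gene, had 543 antisense reads in replicate 2 and 106 in replicate 1 at chr5:111454616-111457033 (- strand), against 26 sense reads in replicate 2 and 14 in replicate 1. In each of these the lowest antisense count was above the highest sense count.

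The same held for genes of the cell surface and of second messengers, with 1 exception. Scn4b, a beta subunit of voltage-gated sodium channels, had 547 antisense reads in replicate 2 and 75 in replicate 1, against 61 sense reads in replicate 2 and 18 in replicate 1. Sdc4, a heparan sulfate proteoglycan of the cell surface, had 512 antisense reads in replicate 2 and 68 in replicate 1, against 5 sense reads in replicate 2 and 1 in replicate 1. Pde4d, a cAMP phosphodiesterase, had 533 antisense reads in replicate 2 and 79 in replicate 1, against 190 sense reads in replicate 2 and 83 in replicate 1, so antisense and sense were nearly equal in replicate 1. Lsm12, an RNA-binding LSM-domain gene, had 340 antisense reads in replicate 2 and 44 in replicate 1, against 12 sense reads in replicate 2 and 5 in replicate 1, a ratio of 22.6 over both libraries.

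Other abundant loci lay in 5' UTRs or noncoding exons, or had models that ran beyond the 3' UTR. Satb1, a chromatin organizer that binds AT-rich DNA, had 748 antisense reads over its 5' UTR in replicate 2 and 115 in replicate 1, against 14 sense reads in each library. Dhrs3, a retinaldehyde reductase gene, had 393 antisense reads over its 5' UTR in replicate 2 and 73 in replicate 1, against 40 sense reads in replicate 2 and 17 in replicate 1. Spry2, an inhibitor of receptor tyrosine kinase signalling, had 577 antisense reads in replicate 2, in a model over its 3' UTR, and 76 in replicate 1, in a model mostly beyond the gene, against 1 sense read in replicate 2 and 0 in replicate 1. The lincRNA 2900097C17Rik had 902 antisense reads in replicate 2 and 178 in replicate 1, against 92 sense reads in replicate 2 and 56 in replicate 1. Gm10031, a gene annotated as protein-coding, had 340 antisense reads in replicate 2, in a model over its 3' UTR, and 52 in replicate 1, where most model bases were over coding exon, against 2 sense reads in replicate 2 and 3 in replicate 1. Nploc4, a cofactor of the p97 unfoldase, had 229 antisense reads in replicate 2 and 26 in replicate 1 at a locus whose leading model, with 225 reads, lay in the 3' UTR while most merged bases lay outside the gene, against 36 sense reads in replicate 2 and 28 in replicate 1.

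An rRNA region on chromosome 17 held a pair of abundant loci that stand apart. A locus at chr17:39843013-39848035 on the - strand faced the lincRNA Gm26917 with 615 reads in replicate 2 and 437 in replicate 1, against 9 sense reads in replicate 2 and 4 in replicate 1. Gm42418, another gene on the opposite strand under this locus, had 224 reads over both libraries, far more than Gm26917. The locus covered the annotated rRNA gene CT010467.1 and AY036118 on its own strand. A locus at chr17:39846353-39846958 on the + strand faced CT010467.1 with 493 reads in replicate 2 and 319 in replicate 1, against 1 sense reads in replicate 2 and 0 in replicate 1, and overlapped Gm42418 on its own strand. Reads of rRNA come from many near-identical copies, and how they were assigned is not given, so the strand and gene of these reads are uncertain. Unlike nearly all other abundant loci, these were at lower CPM in replicate 2 than in replicate 1, at 0.70 and 0.769 of its level.

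**Figure D3:**
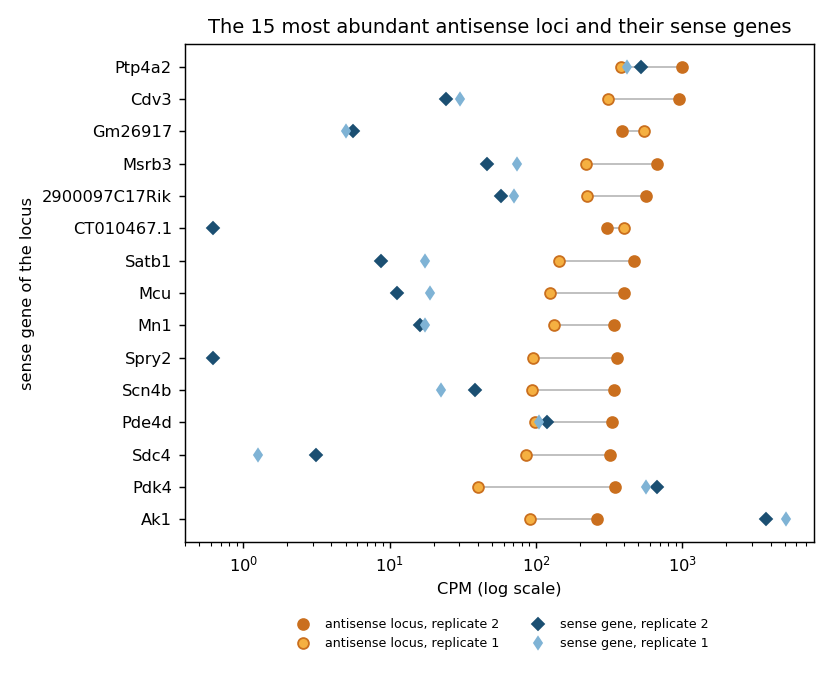
CPM on a log scale (horizontal axis) of the 15 most abundant antisense loci (circles, joined by a line) and of their sense genes (diamonds) in replicate 2 (dark) and replicate 1 (light), 1 row per locus named by its sense gene. In 13 of the 15 the antisense reads summed over both libraries exceed the sense reads, and Pdk4 and Ak1 are the exceptions; CT010467.1 and Spry2 had 0 sense reads in replicate 1 and show no light diamond.

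Over the loci of the set, the antisense level hardly followed the sense level. The minimum of 10 reads cuts off low antisense levels, so this holds for loci above it only. Spearman's rho between the mean CPM of locus and gene was 0.0265 over the 1259 loci with an annotated sense gene, 0.124 over 3' UTR loci and 0.0940 over intronic loci, given as descriptions since the loci share both libraries. The median sense level was 16.3 CPM, 44 loci faced a gene without a read in either library, and 248 faced a gene with fewer than 10 reads. In 483 loci (38.4%) the antisense reads summed over both libraries outnumbered the sense reads, and in 283 they did so in both libraries. The median ratio of antisense to sense reads was 0.522, or 0.348 over the 1011 loci whose sense gene had at least 10 reads.

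Place and ratio went together. Antisense exceeded sense at 206 of 415 loci in 3' UTRs (49.6%), where the median sense level was 12.5 CPM, and at 211 of 706 intronic loci (29.9%), where it was 21.3 CPM. It did so at 25 of 38 loci outside the gene (65.8%), where the median sense level was the lowest of the 3. The minimum of 10 reads keeps out weak loci, so a gene with few reads enters only with a high ratio.

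Genes at higher levels carried a locus in a somewhat larger share. Among the 8096 genes with at least 10 reads, 812 (10.03%) carried one, which was 7.68% of genes under 10 CPM, 10.8% of genes at 30 to 100 CPM and 18.1% of the 94 genes at 1000 CPM or more. The level of the locus stayed within a narrow range, with a median of 6.26 CPM under 10 CPM of sense and 12.8 CPM above 1000. The ratio was lower the higher the gene, at a median of 1.18 under 10 CPM of sense, 0.157 at 30 to 100 CPM and 0.00342 at 1000 CPM or more. At 1000 CPM or more no locus exceeded its gene.

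**Figure D4:**
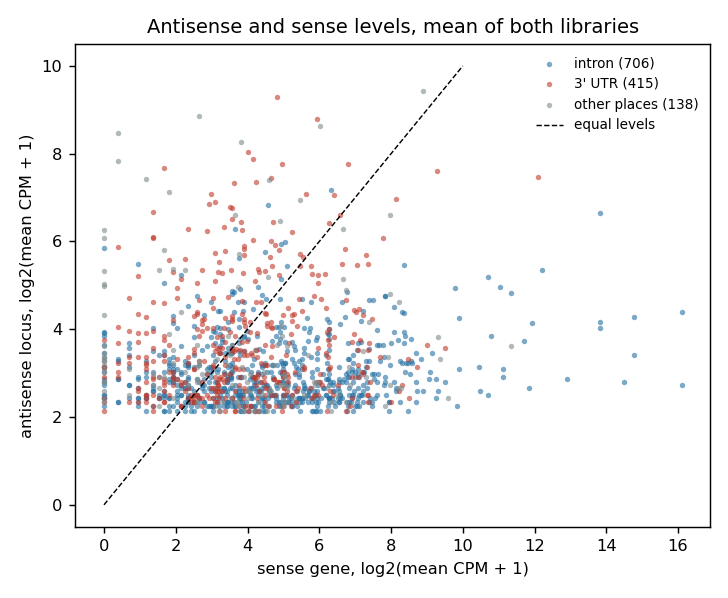
Level of the antisense locus (vertical axis) against that of its sense gene (horizontal axis), both as log2(mean CPM + 1) over the 2 libraries, with intronic loci in blue, 3' UTR loci in red and other places in grey. The cloud is flat, with a Spearman's rho of 0.0265, among loci that needed at least 10 reads to enter. The 448 loci with a higher mean CPM than their gene lie above the dashed line of equal levels.

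Sense genes with a locus also differed in how their own reads were classed. This was taken over the same 307 genes with a 3' UTR locus and 476 with an intronic locus as above. A median of 44.1% of the reads of genes with a 3' UTR locus and 35.4% of those of genes with an intronic locus were in known models, against 64.4% for all protein-coding genes with 10 reads. Genomic models, which overlap a gene without its splicing, held a median of 28.6% of reads in genes with a 3' UTR locus, 13.4% in genes with an intronic locus and 6.52% in all. Counting only known models of the sense gene, 816 loci had more antisense than sense reads.

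Genes of muscle contraction and energy supply were among the sense genes. Of 32 sarcomere genes, 13 (40.6%) carried a locus: Ldb3, Mybpc1, Myh4, Myl1, Myom1, Myom2, Myot, Myoz1, Neb, Tnnt3, Tpm1, Tpm3 and Ttn. Of 22 genes of glycolysis and glycogen use, 9 (40.9%) did, as did 6 of 17 genes of calcium handling (35.3%), 4 of 22 nuclear genes of mitochondria (18.2%), 1 of 10 genes of translation and 2 of 15 genes of the mitochondrial genome with at least 10 reads (13.3%). These shares stand beside 10.03% of all genes with 10 reads and 18.1% of those at 1000 CPM or more.

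The loci over these genes were small beside the gene. The 25 sarcomere loci had a median of 14.4 CPM and 2.14% of the sense reads, the 11 of glycolysis and glycogen 8.44 CPM and 1.92%, and the 8 of calcium handling 7.03 CPM and 0.560%. Over the 24 loci facing a gene at 1000 CPM or more, the median was 0.342%.

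In the sarcomere, the largest locus lay in an intron of Myh4, the myosin heavy chain of type IIb fibres. It was only 126 bases long, at chr11:67257919-67258044 on the - strand, and had 244 reads in replicate 2 and 38 in replicate 1, against 17527 reads of Myh4 in replicate 2 and 14491 in replicate 1. An intronic locus opposite Ttn, the giant spring of the sarcomere, had 99 reads in replicate 2 and 20 in replicate 1 at chr2:76961433-76963703 (+ strand), against 485 sense reads in replicate 2 and 286 in replicate 1. Myom2, an M-band protein gene, had 75 antisense reads in replicate 2 and 10 in replicate 1 at a locus whose merged bases were mostly intronic and whose leading model, with 71 reads, lay in a noncoding exon, against 1061 sense reads in replicate 2 and 864 in replicate 1.

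Over genes of calcium handling, the largest loci were those of Pvalb, Atp2a1 and Camk2a. Pvalb, the calcium buffer of fast fibres, had 53 antisense reads in replicate 2 and 37 in replicate 1 over an intron, against 7349 sense reads in replicate 2 and 3923 in replicate 1. Atp2a1, the calcium pump of the sarcoplasmic reticulum in fast fibres, had 38 antisense reads in replicate 2 and 13 in replicate 1 at chr7:126446544-126454588 (+ strand), against 48342 sense reads in replicate 2 and 87684 in replicate 1, and the locus also overlapped Rabep2 exons on its own strand. Camk2a, a calmodulin-dependent kinase gene, had 30 antisense reads in replicate 2 and 12 in replicate 1, against 40 sense reads in replicate 2 and 27 in replicate 1. Of these, the Camk2a locus came closest to the level of its gene.

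Among the enzymes of energy supply, Ak1, the muscle adenylate kinase, had 415 antisense reads in replicate 2 and 73 in replicate 1 over 176 bases of its 3' UTR, against 5954 sense reads in replicate 2 and 4053 in replicate 1. Pygm, muscle glycogen phosphorylase, had 59 antisense reads in replicate 2 and 19 in replicate 1, against 2161 sense reads in replicate 2 and 2299 in replicate 1. Pdk4, the kinase that switches off pyruvate dehydrogenase, had 557 antisense reads over its 3' UTR in replicate 2 and 32 in replicate 1, against 1080 sense reads in replicate 2 and 451 in replicate 1. The Pdk4 locus thus had about as many reads as Pde4d or Scn4b in replicate 2 but the fewest of the 15 most abundant loci in replicate 1.

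A pair of Vdac1 loci, in introns of the gene for the main channel of the outer mitochondrial membrane, had 28 and 17 reads in replicate 2, with 2 and 1 in replicate 1. Vdac1 itself had 711 reads in replicate 2 and 310 in replicate 1. Rps3, a ribosomal protein gene, faced a locus of 10 reads in replicate 2 and 1 in replicate 1. On the mitochondrial genome, whose strands are both transcribed end to end, the locus opposite mt-Nd6 had 126 reads in replicate 2 and 25 in replicate 1, against 5 reads of mt-Nd6 in replicate 2 and 1 in replicate 1. The first base of this locus was the last base of mt-Nd5 on its own strand, and the locus also overlapped mt-Cytb there. The loci opposite the tRNA genes mt-Tn and mt-Tp had 69 and 24 reads in replicate 2 and 28 and 2 in replicate 1, with no read of either tRNA.

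The loci took a larger share of replicate 2 than of replicate 1. They held 48180 of 1714563 mouse reads in replicate 2, or 2.81% (exact Clopper-Pearson 95% interval 2.79 to 2.83%), and 10305 of 821949 in replicate 1, or 1.25% (1.23 to 1.28%). Reads of all antisense models were 5.48% of mouse reads in replicate 2 and 2.51% in replicate 1, so the set held about the same part of them, 51.3% in replicate 2 and 49.9% in replicate 1. Genomic models moved the same way, with 7.48% of mouse reads in replicate 2 and 4.49% in replicate 1, as did intergenic loci, with 1.07% in replicate 2 and 0.509% in replicate 1. The intervals cover counting error only.

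Each locus was then compared by Fisher's exact test on reads, two-sided, adjusted by Benjamini-Hochberg over 9532 annotated genes and antisense loci with at least 10 reads; features passed with an adjusted p under 0.05 and CPM at least 2-fold apart. The test sets 2 libraries against each other by counting error and says nothing about conditions. Of the 1264 loci, 252 (19.9%) were higher in replicate 2 and 4 (0.316%) lower. Over all features 8.37% were higher and 4.8% lower, over annotated genes 5.81% higher and 5.52% lower, and over the 172 other antisense loci with 10 reads 44.2% higher and 4.07% lower, which had to be in 1 library only and so had to differ, or faced Klhl or Kbtbd genes. The median log2 of replicate 2 over replicate 1 was 1.22 for the loci, 0.06 for annotated genes and -0.18 for the 812 tested sense genes of the loci. In 1124 loci (88.9%) CPM was higher in replicate 2. A locus needed a read in each library to be in the set, which limits how far it could differ. The minimum of 10 reads was on the sum, and a locus had a median of 15 reads in replicate 2 and 3 in replicate 1. Many loci thus entered mainly through replicate 2, so the shares called describe the chosen set only. With at least 20 reads asked, 252 of 583 loci were called higher.

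**Figure D5:**
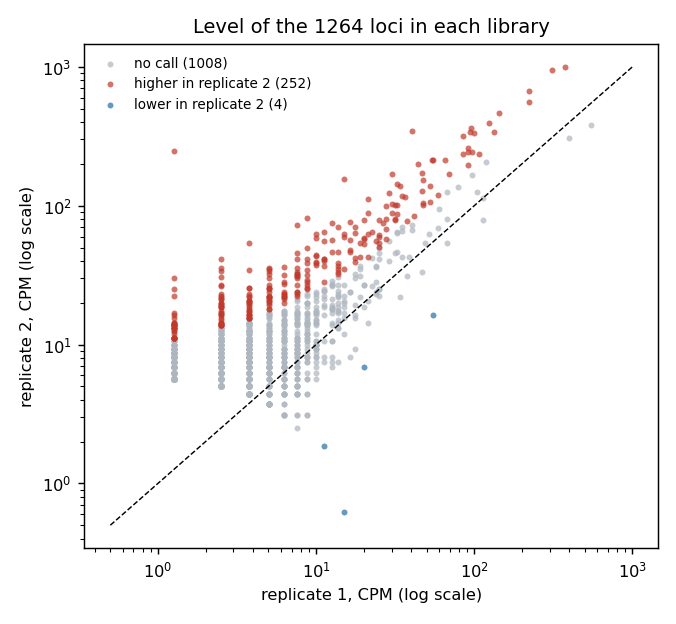
CPM of each of the 1264 loci in replicate 2 (vertical axis) and replicate 1 (horizontal axis), both on log scales, with the 252 loci called higher in replicate 2 in red, the 4 called lower in blue and the rest in grey. Most points lie above the dashed line of equal levels, and the columns at the left are loci with 1 to 3 reads in replicate 1.

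Most sense genes had no call where the locus had one, as was the case for most annotated genes. Of 202 higher loci whose sense gene was tested, the gene was higher in 10, lower in 8 and without a call in 184. The genes under all 4 lower loci had no call. Over all annotated genes tested, 5.81% were higher and 5.52% lower, so these counts show nothing particular to the sense genes. By place, 134 of 415 loci in 3' UTRs, 86 of 706 in introns, 15 of 67 in noncoding exons, 6 of 38 outside the gene, 6 of 17 in 5' UTRs and 4 of 16 in coding exons were higher. A call is easier with more reads, and the median level was 9.37 CPM in 3' UTRs and 5.94 CPM in introns. The median log2 of replicate 2 over replicate 1 lay closer together, at 1.40 in 3' UTRs and 1.16 in introns. A-rich ends made little difference, with a median log2 of 1.45 at A-rich ends and 1.31 at the others. The order of the loci was partly kept, with Spearman's rho between libraries of 0.518 over all loci and 0.670 over the 201 loci with at least 50 reads.

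Of the 15 most abundant loci, 13 were called higher in replicate 2. The Ptp4a2 locus was 2.62-fold higher (95% interval 2.32 to 2.98, adjusted p = 1.68e-62 by Fisher's exact test) and the Cdv3 locus 3.05-fold (adjusted p = 2.26e-73). The Pdk4 locus was 8.66-fold higher (6.06 to 12.8, adjusted p = 1.36e-58). The exceptions were both loci of the rRNA region, which were less than 2-fold apart. The 3 sarcomere loci named above were also called higher by the same Fisher's exact test: Myh4 3.19-fold (95% interval 2.26 to 4.62, adjusted p = 1.44e-12), Ttn 2.46-fold (1.51 to 4.21, adjusted p = 0.000851) and Myom2 3.73-fold (1.92 to 8.10, adjusted p = 0.000105). Of the loci named over calcium handling genes, none was called (adjusted p = 0.286 for Pvalb, 0.531 for Atp2a1 and 0.815 for Camk2a by Fisher's exact test). Among intronic loci, that of Klf13, a zinc-finger transcription factor gene, had 181 reads in replicate 2 and 91 in replicate 1, a ratio of 0.990, so single abundant loci outside the rRNA region were also at the same level.

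The extremes rested on few reads in 1 library. The locus in the 3' UTR of Sod2, the manganese superoxide dismutase of mitochondria, had 396 reads in replicate 2 and 1 in replicate 1, a ratio of 197 (35.2 to 7801, adjusted p = 1.05e-65 by Fisher's exact test), against 596 reads of Sod2 in replicate 2 and 150 in replicate 1. Intronic loci of Tfrc, the transferrin receptor, and Mical2, an actin-modifying monooxygenase, had 48 and 40 reads in replicate 2 and 1 each in replicate 1, ratios of 23.9 and 19.9. In the other direction, the locus facing Iws1, a transcription elongation factor gene, had 1 read in replicate 2 and 12 in replicate 1 (ratio 0.0415, adjusted p = 0.000199). The locus facing Luc7l2, a splicing factor gene, had 3 reads in replicate 2 and 9 in replicate 1 (ratio 0.166, adjusted p = 0.0222). An intronic locus of Pfkm, muscle phosphofructokinase, had 26 reads in replicate 2 and 44 in replicate 1 (ratio 0.294, adjusted p = 9.62e-06), and the last of the 4 lower loci, named after its values were seen, faced Golt1b. Among the 204 loci with a single read in replicate 1, the Sod2 locus had the most reads in replicate 2.

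The libraries differed in other ways too. Replicate 2 had 1748822 reads in its table and replicate 1 had 853589. Skeletal muscle markers, none of 5 at 0, summed to 206042 CPM in replicate 2 and 246965 CPM in replicate 1. Those of blood, 3 as for each further cell type, summed to 459 CPM in replicate 2 and 2074 in replicate 1, and of adipocytes to 68.7 CPM in replicate 2 and 380 in replicate 1. Those of Schwann cells and nerve summed to 78.0 CPM in replicate 2 and 207 in replicate 1, of fibroblasts to 515 CPM in replicate 2 and 825 in replicate 1, and of endothelium to 41.2 CPM in replicate 2 and 52.7 in replicate 1. Immune markers summed to 43.1 CPM in replicate 2 and 33.9 in replicate 1, where 1 of the 3 was at 0. In a bulk tissue, fewer cells of a type and less RNA per cell cannot be told apart. The part of depth and of other cell types in the differences between the libraries was not tested.

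Antisense models were also found on the spike-in transcripts. Over the 50 Ambion spikes with sense reads in replicate 2, 0 of 34060 reads were antisense, which allows up to 0.00881% (3 counts of the total), and over 52 in replicate 1, 1 of 31437 reads was, or 0.00318%. Another 4 spikes had antisense reads only, 199 in replicate 2 and 203 in replicate 1, and whether their annotated strand is that of the spike as made is not known from the sources used here. With them, antisense reads were 0.581% of Ambion spike reads in replicate 2 and 0.645% in replicate 1. The part of reads placed on the wrong strand in the loci was not tested.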

How the data were processed

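For each library the authors deposited a table of raw read counts, 1 row per transcript model, and a GTF of the models, both made with TALON (named in the deposited annotation) from filtered alignments to mm10 with GENCODE M21, per the README beside the files. The deposited coordinates, exon numbers and model lengths, in bases, are the authors' own. No source used here names the aligner, the read correction or a version; replicates were not pooled and no scaling was applied by the authors.

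From these, loci were built as described, CPM was computed on reads in annotated mouse genes (1602272 in replicate 2, 797105 in replicate 1), and the libraries were compared with scipy 1.17.1 (Python 3.11.15, pandas 2.3.3). A simulation of 6742 features with 200 changed 4-fold recovered 80.5% of them with 3 false calls. It was built from features with at least 20 reads and drew counts with counting error only. It therefore does not describe features with fewer reads, or false calls from variation between animals or libraries. TMM factors (edgeR 4.0.16) and DESeq2 1.42.0 size factors served as other scalings. Shares and folds have exact 95% intervals, which cover counting error only, as no molecular identifiers are given to tell molecules apart.

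The loci, sense gene lists and named loci were chosen with earlier results of these data known. Named were the 15 most abundant loci, the 5 with the highest antisense to sense ratio, the 5 most spliced, the 3 highest and 3 lowest ratios between libraries, the 3 most abundant per place and up to 3 per list. Lexogen spike-ins were not analysed here. The sequence at 1 locus end is not reported here.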

Additional observations from a re-analysis of the deposited data

How the results depend on the processing

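The set was 1264 loci, or 4549 with no minimum of reads, 583 with 20 reads, 829 with at least 3 reads in each library and 30 from spliced models only. With the minimum asked of a single library there were 1152 for replicate 2 and 203 for replicate 1. Those counts asked for no model in the other library. Introns held 45.5% of loci by the 5' end and 46.8% by the 3' end, against 55.9% by bases. On reads in annotated genes, the set's share was 3.01% in replicate 2 and 1.29% in replicate 1. The median log2 ratio of antisense to sense was -0.91, and with known models of the sense gene only it turned to 0.98, with 816 loci above their gene; with each library left out it ran between -1.65 and -0.39, with 300 to 538 loci above their gene. Loci higher in replicate 2 numbered 183 to 264 under the other scalings and filters. Lower ones numbered 2 with no minimum of reads or with 20, and 7 with no minimum difference. With totals that leave out Atp2a1, genes split into 348 higher and 570 lower, against 470 and 447, and the Mbnl1 locus was 1.96-fold higher and lost its call. With no minimum of reads the calls of Bcl2l1 (adjusted p = 0.0657), Luc7l2 (0.0869) and mt-Tp (0.116) were lost. The cause of these changes was not tested. No paired analysis was possible because the study has 1 group. Depth limits replicate 1 most, where 204 loci had a single read.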

Other observations

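Antisense loci with at least 10 reads in 1 library and none in the other numbered 165, of which 158 were in replicate 2 and 7 in replicate 1. They lie outside the 1264 loci and were counted among the 172 other antisense loci with 10 reads.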
